A study of Mus musculus with 54 samples.

Results

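Primary mouse lung fibroblasts were kept in medium without leucine, isoleucine and valine, the branched-chain amino acids (BCAA), or in that medium with BCAA returned. RNA of 3 samples with BCAA returned was sequenced beside that of 3 without BCAA. No transforming growth factor β1 (TGF-β1), the cytokine that turns fibroblasts into matrix-secreting myofibroblasts, was added to either group. The 6 libraries were taken by their sample labels from the 54 of the series, of which 24 are fibroblasts in 8 groups of 3 and the rest are whole lungs. Of the 26264 genes in the fibroblast table, the 13084 with a value of at least 1 TPM (a length-corrected share of each library, scaled to the same total in all) in at least 3 of the 24 libraries were tested. 

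All groups used here are labelled as wild-type cells from mice 6 to 8 weeks old, freed from lung with collagenase I, separated by differential adhesion and grown in DMEM/F12 with 10% serum under 5% O2 and 5% CO2. The media compared, each with PBS, are BCAA-free medium with BCAA returned (Free+BCAA), BCAA-free medium with branched-chain keto acids returned (Free+BCKA), BCAA-free medium alone (Free) and complete medium (Complete). The labels give 24 h in each medium before stimulation and 48 h of stimulation. These times are the same for Free+BCAA and the other media. Free+BCAA and Free also exist with 20 ng/mL TGF-β1. The amount of BCAA returned, the serum of the test media and whether the 3 libraries of a group came from separate cultures are not given in the sources used here, so p-values measure only the spread between these libraries, which may be technical.

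Leucine is sensed by cells through the sestrins, which release the growth kinase mTORC1 when leucine is bound, and a lack of any amino acid leaves uncharged tRNA that leads through the kinase GCN2 to the transcription factor ATF4. BCAA that are not used for protein are turned by the aminotransferases Bcat1 and Bcat2 into keto acids, which the mitochondrial BCKDH complex oxidises. Fibroblasts in culture divide unless they are confluent or starved, and the RNAs of mitosis genes are made mainly in the G2 and M phases.

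Fibroblast markers had the highest sum of the marker lists, and no gene used here checks whether BCAA were present. Summed fibroblast markers, 21 genes such as Col1a1, Pdgfra and Dcn, took 39970 to 42250 TPM in Free+BCAA and 37660 to 41610 TPM in Free. Lymphocyte markers summed to at most 0.801 TPM and erythroid markers to at most 0.4 TPM in these groups, with the T cell genes Cd3d and Cd8a at 0 in all 6 libraries. Macrophage markers summed to under 12 TPM, and adipocyte markers to 72.6 to 82.7 TPM in Free+BCAA and 87.8 to 97.6 TPM in Free. Pericyte, smooth muscle and mesothelial markers were present and are given with the results. Genes above 0 numbered 16395 to 16578 in Free+BCAA and 16234, 16653 and 15122 in Free replicates 1, 2 and 3. Only TPM are used, so sequencing depth is unknown. Free replicates 2 and 3 lay farther from their group mean (root mean square 0.178 and 0.194 on the log2 scale) than any Free+BCAA library (0.099 to 0.104), on opposite ends of the first principal component of the 12 PBS libraries, and counts of calls are therefore also given without each library.

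Returning BCAA lowered genes of cell division and raised a small number of genes with varied roles. Of 13084 genes tested, 34 passed an adjusted p of 0.05 (limma, Benjamini-Hochberg over all genes), a background of 0.26%. Of these, 16 rose (0.122%) and 18 fell (0.138%) in Free+BCAA relative to Free. The changes were modest: 4 genes moved by at least 1 log2 unit, namely Cenpf, Kntc1 and Nusap1 downward and Clec3b upward. At an unadjusted p of 0.05, 475 genes were higher (3.63%) and 294 lower (2.25%), together 769 or 5.88%. The median log2 fold change of all genes was 0.04, and 60.9% of genes were higher. When each library was centred on its median, 14 genes rose and 27 fell.

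The number of calls depended on single libraries. Without Free+BCAA replicate 1, 2 or 3 it was 4, 15 or 5, and without Free replicate 1, 2 or 3 it was 19, 12 or 10. Cenpf and Clec3b kept their call in all 6 of them, and Bub1 in 5. Csf3r also kept it in 5, but it reached 1 TPM only in the 3 Free libraries. The filter was not reapplied when a library was left out, so for Csf3r this is no sign of stability. Top2a, Ccna2, Cenpe, Spc25, Neil3, Alpl, Inmt, Slc37a2, Hmox1, Upk3b, Sfrp2 and Sfrp4 kept it in none of them. Over all alternatives in which they were fitted, Sfrp2 kept its call in 2 of 14, Sfrp4 in 2 of 13, Cntn1 in 3 of 13 and Spc25 in 3 of 14.

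**Figure D1:**
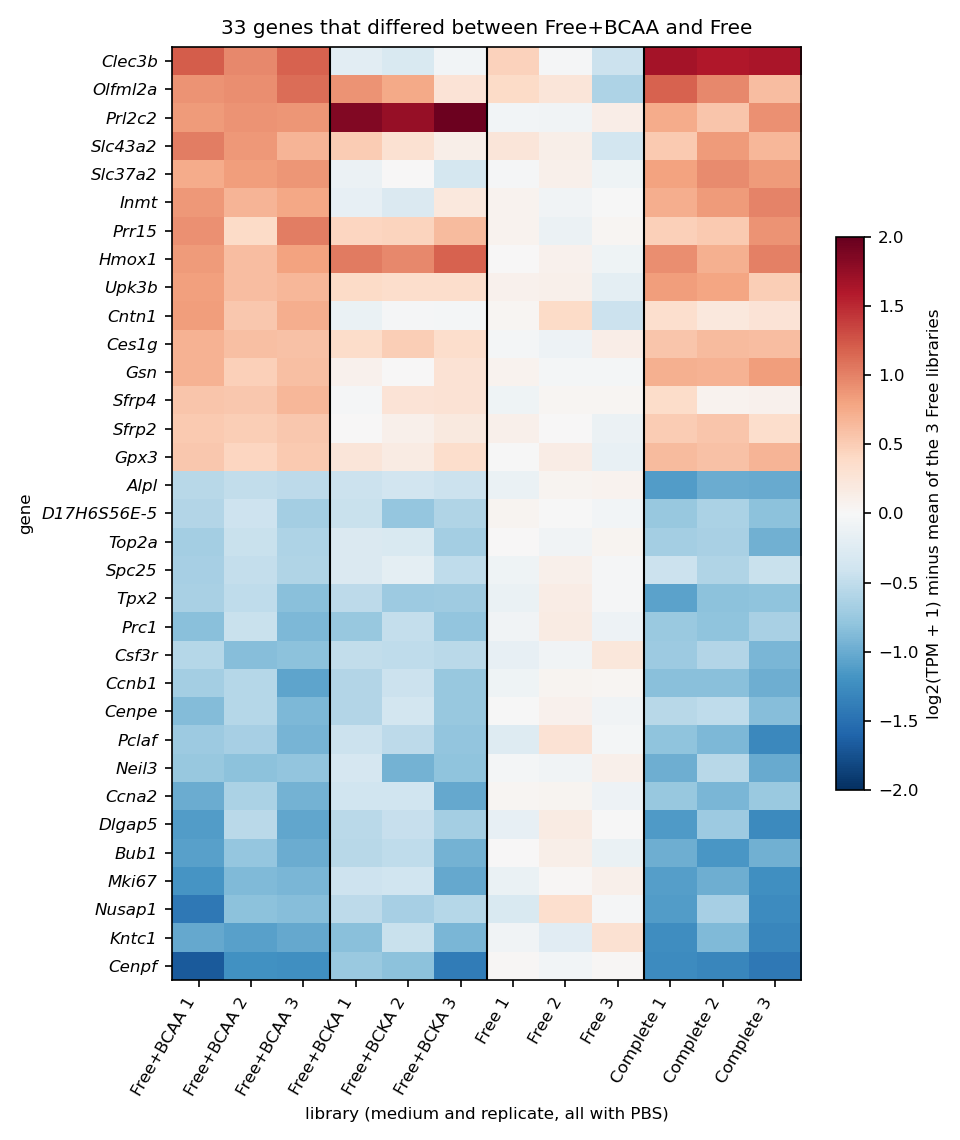
Heat map of 33 of the 34 genes (rows, ordered by fold change) in the 12 PBS libraries (columns, by medium and replicate); colour is log2(TPM + 1) minus the mean of the 3 Free libraries, red higher and blue lower. The 3 Free+BCAA columns are red for the upper 15 genes and blue for the lower 18, by up to 1.37 log2 units on average for Cenpf.

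The genes that fell are shown first through their promoters, because 10 of the 18 are mitosis genes and many such promoters carry a CCAAT box, bound by the factor NF-Y, and a CHR element, bound by the MuvB complexes that switch late cell cycle genes on and off. RefSeq promoter windows (build GRCm38.p6, 250 bases before to 50 after the transcription start) matched 26 of the 34 genes by symbol. The windows of the 5 largest falls follow, on the strand of the gene, with capitals marking CCAAT and TTTGAA read on either strand (ATTGG and TTCAAA on the opposite one). Cenpf lies at chr1:189688037-189688336 (minus strand), Kntc1 at chr5:123749476-123749775 (plus), Nusap1 at chr2:119618048-119618347 (plus), Mki67 at chr7:135716330-135716629 (minus) and Bub1 at chr2:127831810-127832109 (minus).
Cenpf: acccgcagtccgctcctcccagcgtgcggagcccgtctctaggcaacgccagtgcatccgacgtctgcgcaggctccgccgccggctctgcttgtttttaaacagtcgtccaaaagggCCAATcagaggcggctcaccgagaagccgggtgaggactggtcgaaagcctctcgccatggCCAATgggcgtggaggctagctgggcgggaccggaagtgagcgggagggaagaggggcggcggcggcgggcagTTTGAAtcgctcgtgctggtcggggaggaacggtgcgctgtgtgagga
Kntc1: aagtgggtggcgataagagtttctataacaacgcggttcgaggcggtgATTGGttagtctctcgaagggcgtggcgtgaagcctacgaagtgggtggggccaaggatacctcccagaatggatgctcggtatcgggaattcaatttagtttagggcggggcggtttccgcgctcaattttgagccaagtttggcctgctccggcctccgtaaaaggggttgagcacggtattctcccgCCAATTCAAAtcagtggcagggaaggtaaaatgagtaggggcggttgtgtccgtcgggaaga
Nusap1: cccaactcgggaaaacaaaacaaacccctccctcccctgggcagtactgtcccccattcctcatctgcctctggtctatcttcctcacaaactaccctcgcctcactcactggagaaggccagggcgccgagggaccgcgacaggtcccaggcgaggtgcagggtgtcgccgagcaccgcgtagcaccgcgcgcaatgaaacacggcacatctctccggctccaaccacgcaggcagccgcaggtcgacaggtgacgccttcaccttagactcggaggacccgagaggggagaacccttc
Mki67: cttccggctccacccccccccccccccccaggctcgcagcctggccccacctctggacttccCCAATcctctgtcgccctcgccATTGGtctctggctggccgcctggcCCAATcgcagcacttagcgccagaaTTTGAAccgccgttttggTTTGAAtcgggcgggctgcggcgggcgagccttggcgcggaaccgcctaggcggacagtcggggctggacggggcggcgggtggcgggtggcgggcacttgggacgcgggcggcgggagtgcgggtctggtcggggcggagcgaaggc
Bub1: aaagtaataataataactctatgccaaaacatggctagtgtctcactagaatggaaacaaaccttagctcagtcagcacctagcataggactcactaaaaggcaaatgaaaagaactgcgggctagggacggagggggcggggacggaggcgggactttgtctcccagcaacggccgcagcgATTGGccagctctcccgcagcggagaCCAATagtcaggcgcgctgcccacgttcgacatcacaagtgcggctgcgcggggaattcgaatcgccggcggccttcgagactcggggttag

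For CCAAT and TTTGAA, Cenpf holds 2 and 1, Kntc1 2 and 1, Mki67 3 and 2, and Bub1 2 and 0. Only these letters were counted, and variants such as the TTCGAA in the Bub1 window were not. In Kntc1 one CCAAT and the TTTGAA overlap by 1 base. The letters of neither motif are in the Nusap1 window. Of the 15 genes that fell and have a window, 10 hold CCAAT (66.7%), 6 hold TTTGAA (40%) and 6 hold both (40%), where a gene with several starts counts once if any window holds the motif. Among the 10412 tested genes with a window the shares were 43.2%, 14.1% and 5.82%, and among all 27025 genes with RefSeq windows they were 41.1%, 20.2% and 7.97%. Of the 11 genes that rose and have a window, 6 hold CCAAT (54.5%) and 1 holds TTTGAA (9.09%). Of the 35 listed mitosis genes with a window, 27 hold CCAAT (77.1%), 28 TTTGAA (80%) and 23 both (65.7%). That list holds 10 of the 18 genes that fell, so their shares are not separate from those of mitosis genes. A match in a window is a description of its letters and says nothing of whether a factor binds there.

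Mitosis genes were lower in Free+BCAA as a group. All 40 of the 40 listed were lower than in Free (39.1% of all genes were), and 10 of them fell at the adjusted threshold (0.138%). At an unadjusted p of 0.05, 38 were lower (2.25%). The median log2 fold change of the 40 was -0.67, beside 0.04 for all genes. Their summed level was 323, 375 and 313 TPM in Free+BCAA and 541, 600 and 537 TPM in Free. The groups did not overlap, and every Free library lay above every Free+BCAA library. Without a single library the number that fell ranged from 1 (without Free+BCAA replicate 1) to 7, with 2 without Free+BCAA replicate 3, 2 without Free replicate 2 and 3 without Free replicate 3. In bulk RNA, fewer dividing cells and less of each RNA per dividing cell cannot be told apart.

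The members and 3 further division genes outside the list, Kntc1, Dlgap5 and Spc25, are given by role. Among kinetochore genes, Cenpf fell the most of all genes tested. Cenpf encodes a large kinetochore and microtubule-binding protein that accumulates in G2. It had 4.23, 6.26 and 6.16 TPM in Free+BCAA, against 16.1, 15.2 and 16.1 TPM in Free. The 2 groups were far apart, with a log2 fold change of -1.37 ± 0.18 (SE, adjusted p = 0.00128, limma), and Cenpf was the one gene called under all 14 alternative settings. Kntc1, part of the complex that brings dynein to kinetochores, had 3.14, 2.95 and 3.10 TPM in Free+BCAA and 6.95, 6.17 and 9.32 TPM in Free. It fell by 1.04 log2 units (SE 0.20, adjusted p = 0.0202), with Free replicate 3 the highest. The checkpoint kinase Bub1, which holds the cell in mitosis until chromosomes attach, had 2.14, 2.93 and 2.35 TPM in Free+BCAA and 5.75, 6.29 and 5.06 TPM in Free. It fell by 0.95 log2 units (SE 0.15, adjusted p = 0.00548). Cenpe, the kinetochore motor, had 6.57, 8.22 and 6.41 TPM in Free+BCAA and 12.7, 13.6 and 12.0 TPM in Free, and fell by 0.78 log2 units (adjusted p = 0.047). Spc25, of the NDC80 complex, fell by 0.58 log2 units (adjusted p = 0.0492), while its partners Ndc80 and Nuf2 were at -0.79 and -0.70 and did not pass.

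Spindle and midzone genes were lower by similar amounts. Nusap1 encodes a protein that bundles spindle microtubules. Its levels were 2.29, 4.07 and 3.95 TPM in Free+BCAA and 6.18, 10.2 and 7.77 TPM in Free, without overlap, and it fell by 1.03 log2 units (SE 0.20, adjusted p = 0.0214). Tpx2, which activates the spindle kinase Aurora A, had 18.2, 20.1 and 15.8 TPM in Free+BCAA and 26.4, 32.3 and 28.6 TPM in Free, and fell by 0.66 log2 units (adjusted p = 0.0202). Dlgap5, a spindle-stabilising protein, fell by 0.90 log2 units (adjusted p = 0.0161). Prc1 crosslinks the microtubules of the central spindle, where the cell later divides. It had 12.3, 16.3 and 11.7 TPM in Free+BCAA and 21.5, 25.6 and 20.9 TPM in Free, a fall of 0.72 log2 units (adjusted p = 0.0161). The kinesins Kif11, Kif20a and Kif23 did not pass: Kif11 was at -0.68, Kif20a at -0.61 and Kif23 at -0.58, where the 4.57 TPM of Free replicate 3 lay inside the Free+BCAA range of 4.03 to 5.03 TPM.

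Cyclins and chromosome proteins completed the group. Mki67, the proliferation marker that coats mitotic chromosomes, had 15.1, 18.6 and 18.3 TPM in Free+BCAA and 32.3, 36.1 and 37.9 TPM in Free. The highest Free+BCAA library was below the lowest Free library by far, and Mki67 fell by 0.99 log2 units (SE 0.18, adjusted p = 0.0161). Ccnb1, the cyclin that drives entry into mitosis with Cdk1, had 9.85, 10.7 and 7.36 TPM in Free+BCAA and 15.3, 17.0 and 16.9 TPM in Free, a fall of 0.77 log2 units (adjusted p = 0.0179). Ccna2, the cyclin of S and G2 phase, fell by 0.86 log2 units (adjusted p = 0.0391). Top2a, the topoisomerase that untangles sister chromatids, had 37.5, 44.3 and 39.0 TPM in Free+BCAA and 61.1, 57.4 and 62.9 TPM in Free, a fall of 0.58 log2 units (adjusted p = 0.0421). Cdk1 itself had the smallest difference of the list, -0.28, and did not pass. Its 16.8, 19.0 and 17.4 TPM in Free+BCAA overlapped the 22.1, 25.0 and 18.5 TPM of Free.

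**Figure D2:**
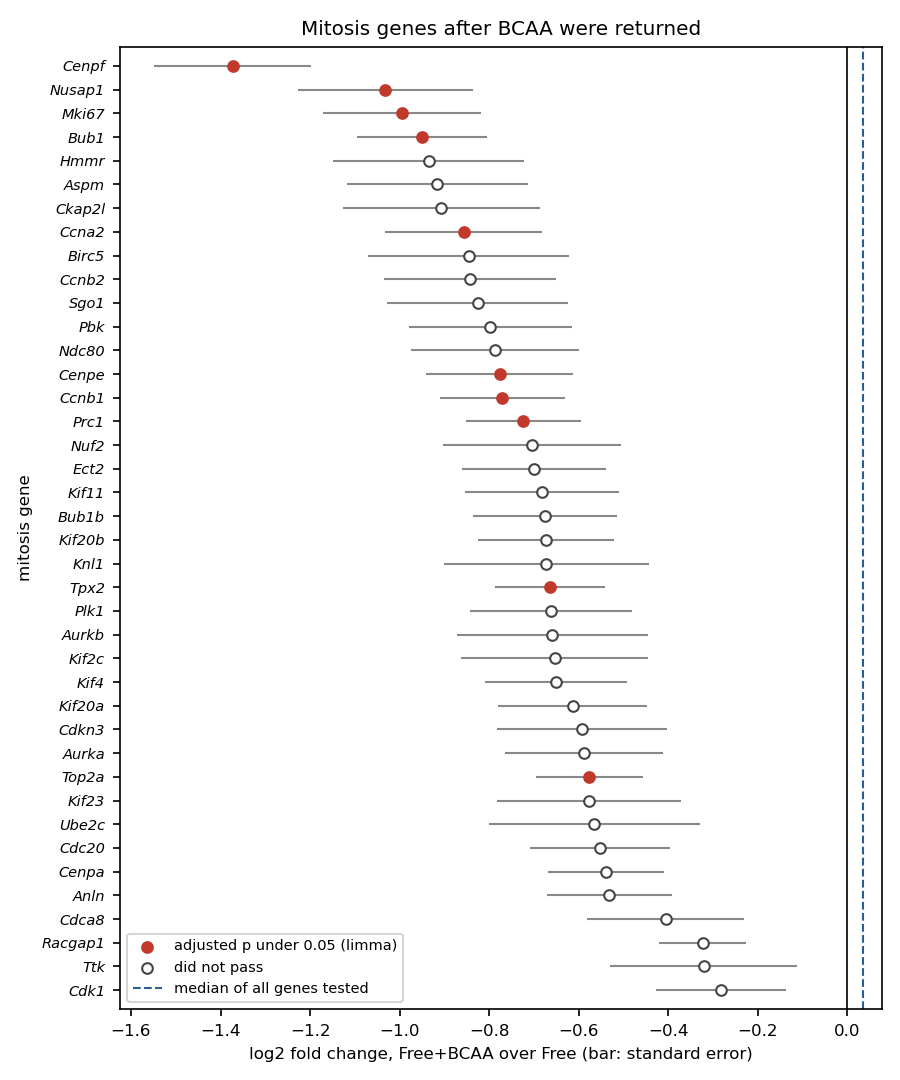
Log2 fold change of each of the 40 mitosis genes, Free+BCAA over Free (horizontal axis; bars are standard errors from limma); filled points passed an adjusted p of 0.05, open points did not, and the dashed line is the median of all genes tested. All 40 points lie left of 0, from -1.37 for Cenpf to -0.28 for Cdk1.

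Genes of DNA replication moved less. Of 37 tested, 30 were lower (39.1% of all genes were), 4 of them at an unadjusted p of 0.05 (2.25%). None passed (0.138% of all genes fell), and the median was -0.11. Rrm2, the ribonucleotide reductase subunit that limits dNTP supply, was at -0.51 and Tk1, thymidine kinase, at -0.66, both with an adjusted p above 0.1 (limma). Outside the list, 2 genes tied to replication fell. Pclaf, a partner of the sliding clamp PCNA, had 4.21, 4.43 and 3.53 TPM in Free+BCAA and 6.26, 9.56 and 7.46 TPM in Free (-0.78, adjusted p = 0.044). Neil3, a DNA glycosylase of dividing cells, had 1.51, 1.42 and 1.48 TPM in Free+BCAA and 3.14, 3.07 and 3.596 TPM in Free (-0.79, adjusted p = 0.0214).

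The 3 other genes that fell, Csf3r, Alpl and D17H6S56E-5, are in neither the mitosis nor the replication list. Csf3r, the receptor for the neutrophil growth factor G-CSF, was low throughout, with 0.512, 0.241 and 0.275 TPM in Free+BCAA and 1.01, 1.15 and 1.64 TPM in Free. It fell by 0.75 log2 units (SE 0.12, adjusted p = 0.00824) and was the 1 neutrophil marker of 7 to be tested. It passed the filter on low values only through the 3 Free libraries, being at or under 0.598 TPM in every other group, so it could be tested only because it was high in Free. The others were near 0: neutrophil markers summed to 0.325 to 0.891 TPM in Free+BCAA and 1.22 to 2.09 TPM in Free, with S100a9 and Retnlg at 0 in all 6 libraries. Alpl, tissue-nonspecific alkaline phosphatase, had 25.5, 26.5 and 26.1 TPM in Free+BCAA and 34.5, 39.6 and 39.9 TPM in Free, a fall of 0.53 log2 units (adjusted p = 0.0444). D17H6S56E-5, a gene of the mouse major histocompatibility region, had 16.7, 18.8 and 15.5 TPM in Free+BCAA and 26.6, 25.2 and 24.6 TPM in Free (-0.56, adjusted p = 0.0202).

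Metabolic enzymes were among the genes that rose. Inmt, an amine N-methyltransferase typical of lung fibroblasts, had 69.8, 61.4 and 65.5 TPM in Free+BCAA and 39.7, 35.9 and 37.7 TPM in Free (0.78, adjusted p = 0.0202). Ces1g, a carboxylesterase of a family with near-identical members between which reads are uncertain, had 31.4, 29.5 and 29.1 TPM in Free+BCAA and 18.6, 17.8 and 21.1 TPM in Free (0.62, adjusted p = 0.0239).

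A carrier of BCAA was among the risers. Slc43a2 encodes LAT4, a carrier that lets leucine, isoleucine, valine, phenylalanine and methionine across the membrane down their gradient. Its levels were 11.0, 9.71 and 8.46 TPM in Free+BCAA and 5.99, 5.38 and 3.57 TPM in Free, without overlap, and it rose by 0.86 log2 units (SE 0.15, adjusted p = 0.0161). It was the only one of 24 amino acid transporters to pass (0.26% of all genes did). Of the 24, 16 were higher, beside 60.9% of all genes, and the median was 0.07. The exchanger pair that imports leucine did not follow: Slc7a5 had 29.1, 25.7 and 26.8 TPM in Free+BCAA and 28.2, 32.6 and 29.9 TPM in Free (-0.15), and Slc3a2 was at 0.07. Slc37a2, a sugar phosphate exchanger of the endoplasmic reticulum, had 3.83, 4.21 and 4.38 TPM in Free+BCAA and 1.87, 2.13 and 1.73 TPM in Free, and rose by 0.82 log2 units (adjusted p = 0.026).

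Hmox1 and Gpx3 act against oxidative stress. Hmox1, haem oxygenase 1, had 103, 87.8 and 100.01 TPM in Free+BCAA and 57.5, 60.3 and 53.6 TPM in Free. The groups did not overlap and Hmox1 rose by 0.75 log2 units (SE 0.15, adjusted p = 0.0287), but it lost its call without any one of the 6 libraries (adjusted p 0.0556 to 0.239, limma). In the list of NRF2 targets and haem genes it was the only one of 31 to pass (0.26% of all genes did). Of the list 26 were higher (60.9% of all genes were), 9 at an unadjusted p of 0.05 (3.63%), with a median of 0.11. The iron exporter Slc40a1 was at 0.58 and the glutathione synthesis enzyme Gclc at 0.39, and neither passed. Gpx3, the secreted glutathione peroxidase, had 1202, 1112 and 1195 TPM in Free+BCAA and 827, 918 and 752 TPM in Free (0.49, adjusted p = 0.0235).

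Several risers encode secreted proteins or belong to the fibroblast and mesothelial marker lists. Clec3b, tetranectin, a plasminogen-binding protein of adventitial fibroblasts, had 9.83, 8.10 and 9.53 TPM in Free+BCAA and 5.42, 3.57 and 2.46 TPM in Free. It rose the most of the 34 genes, by 1.12 log2 units (SE 0.15, adjusted p = 0.00128, limma), with Free replicate 3 the lowest. Clec3b lost its call with a pseudocount of 0.1 and with only the compared groups in the fit. Gsn, gelsolin, which severs actin filaments, is among the abundant RNAs of these cells. It had 3294, 2829 and 3085 TPM in Free+BCAA and 2134, 1989 and 1982 TPM in Free (0.59, adjusted p = 0.0138). The Wnt-binding proteins Sfrp2 and Sfrp4 rose by 0.52 and 0.59 log2 units (adjusted p = 0.0479 and 0.0472), neither holding when any one library was left out. Olfml2a, an extracellular olfactomedin-domain protein, had 2.96, 3.09 and 3.65 TPM in Free+BCAA and 1.77, 1.52 and 0.400 TPM in Free (0.98, adjusted p = 0.0391). Olfml2a kept its call in 4 of 13 alternatives and lost it with only the 12 PBS libraries in the fit. With 1 library left out its difference went down to 0.68. Of the 21 fibroblast markers 3 rose (0.122% of all genes did), Clec3b, Inmt and Gsn, and the median of the 21 was 0.13. Of the others 7 were lower, 2 of them at an unadjusted p of 0.05, down to -0.26.

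Mesothelial markers were higher as well. All 7 tested were higher (60.9% of all genes were), 5 of them at an unadjusted p of 0.05 (3.63%), with a median of 0.40. Of the 7, 1 rose (0.122% of all genes did), the uroplakin Upk3b. It had 27.0, 23.4 and 24.0 TPM in Free+BCAA and 15.9, 16.1 and 12.9 TPM in Free (0.70, adjusted p = 0.0472, limma). The mesothelial markers summed to 119 to 121 TPM in Free+BCAA and 84.2 to 96.0 TPM in Free. Pericyte and smooth muscle markers moved the other way: all 10 tested were lower (39.1% of all genes were) and none passed. At an unadjusted p of 0.05, 4 were lower (2.25% of all genes). Their sum was 1194 to 1299 TPM in Free+BCAA and 1719 to 1980 TPM in Free. Acta2, given below with the contractile genes, took most of this sum in each library and was the lowest of the list at -0.63. The part of pericytes, smooth muscle and mesothelial cells in the results above was not tested. The remaining risers were Prl2c2, a proliferin whose near-identical family copies make its reads uncertain, with 23.9, 24.9 and 24.4 TPM in Free+BCAA and 12.3, 12.2 and 14.1 TPM in Free (0.88, adjusted p = 0.00824), the adhesion protein Cntn1 (0.70, adjusted p = 0.0391) and Prr15 (0.78, adjusted p = 0.0373).

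**Figure D3:**
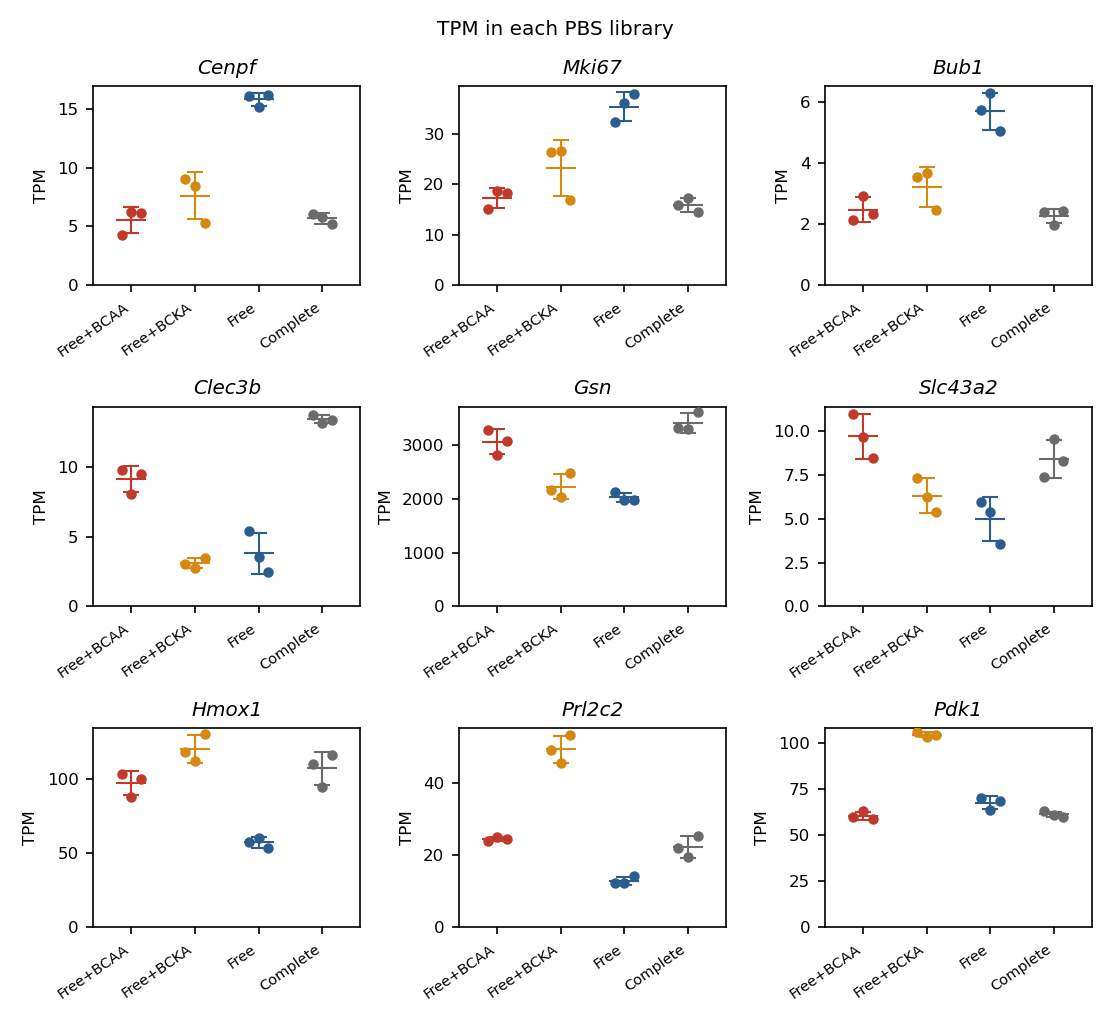
TPM (vertical axes, from 0) of 9 genes in the 3 libraries of each medium with PBS; points are libraries, dashes and bars the mean ± SD. For Cenpf, Mki67 and Bub1 the Free libraries stand above Free+BCAA, for Clec3b, Gsn, Slc43a2, Hmox1 and Prl2c2 below it, and Pdk1 stands out at 103 to 106 TPM in Free+BCKA.

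The genes that handle BCAA themselves showed no change that passed. Of 8 genes of transamination and BCKDH, none passed (0.26% of all genes did), 7 were higher (60.9% of all genes were) and the median was 0.07. Bcat1, the cytosolic aminotransferase, had 16.7, 14.7 and 16.1 TPM in Free+BCAA and 18.9, 17.7 and 20.0 TPM in Free, groups that did not overlap, with a log2 difference of -0.24 (95% interval -0.51 to 0.03). Bckdk, the kinase that switches BCKDH off, had 74.2, 68.8 and 68.6 TPM in Free+BCAA, inside the 58.0 to 81.0 TPM of Free (0.07, interval -0.17 to 0.30). Of 19 enzymes of the later oxidation steps none passed (0.26% of all genes did), with a median of 0.02. None reached an unadjusted p of 0.05 (5.88% of all genes did).

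The response to amino acid shortage showed no gene past the threshold either. Of 36 genes under ATF4 none passed (0.26% of all genes did), and the median was 0.01. Of the 36, 19 were higher (60.9% of all genes were) and 17 lower (39.1%). At an unadjusted p of 0.05, 3 were higher (3.63% of all genes) and 3 lower (2.25%). Asns, asparagine synthetase and the best-known member, had 37.3, 35.2 and 37.4 TPM in Free+BCAA and 42.7, 53.6 and 48.5 TPM in Free. These did not overlap, and the log2 difference of -0.38 (interval -0.70 to -0.06) had an adjusted p of 0.70 (limma). Atf4 itself lay the other way, with 120, 127 and 123 TPM in Free+BCAA and 82.2, 109 and 79.0 TPM in Free (0.46, adjusted p = 0.70, and 0.0384 in a fit of the 12 PBS libraries alone). Sesn2, a leucine sensor and ATF4 target, had 52.0, 45.5 and 48.0 TPM in Free+BCAA and 36.5, 38.0 and 38.6 TPM in Free (0.35, adjusted p = 0.44, and 0.0337 in that fit). Trib3, Ddit3 and Chac1 were at -0.12, 0.14 and -0.10. None of 20 cytosolic tRNA synthetases and none of 36 genes of leucine sensing and mTORC1 passed (0.26% of all genes did). Their medians were 0.01 and 0.03.

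Collagen genes did not differ detectably. Of 26 tested none passed (0.26% of all genes did) and the median was 0.04. Col1a1 had 4877, 4488 and 4506 TPM in Free+BCAA and 5008, 4342 and 4151 TPM in Free, overlapping groups with a difference of 0.04 (interval -0.73 to 0.81). Contractile genes were mostly lower: 28 of 34 (39.1% of all genes were), 10 of them at an unadjusted p of 0.05 (2.25%). None passed, and the median was -0.12. Acta2, smooth muscle actin, had 758, 743 and 693 TPM in Free+BCAA and 1054, 1210 and 1134 TPM in Free. The groups were apart by a log2 difference of -0.63 (interval -0.96 to -0.30), with an adjusted p of 0.12 over all genes, 0.0376 after median centring and 0.000479 in the fit of the 12 PBS libraries. Tagln was at -0.54 and Cnn1 at -0.59, neither passing.

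Of 45 interferon response genes 43 were higher (60.9% of all genes were), 5 at an unadjusted p of 0.05 (3.63% of all genes). None passed, and the median was 0.15. Isg15 overlapped between groups, with 21.7, 16.1 and 19.1 TPM in Free+BCAA and 13.5, 21.3 and 13.5 TPM in Free. Ribosomal protein genes were lower in 47 of 50 (39.1% of all genes were), none passing, with a median of -0.21. They took 4.36, 4.67 and 4.13% of the library in Free+BCAA and 5.00, 6.10 and 4.44% in Free, shares that overlapped.

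**Figure D4:**
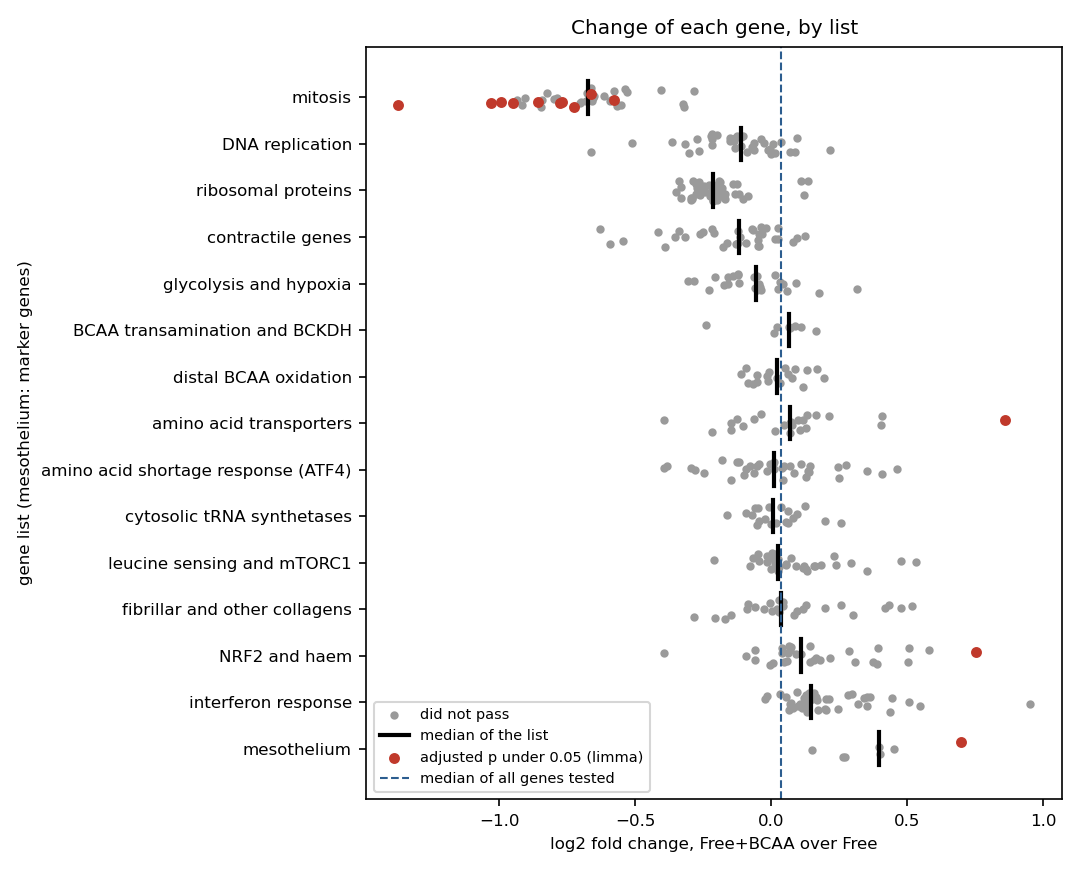
Log2 fold change of each gene, Free+BCAA over Free, in 14 pathway lists and the mesothelial markers (rows); red points passed an adjusted p of 0.05, black bars are list medians, and the dashed line is the median of all genes at 0.04. The mitosis list lies farthest left with a median of -0.67, and most other lists sit near the dashed line.

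Against Complete, Free+BCAA showed no gene past the threshold: 0 of 13084 (0%) by limma, and 138 (1.05%) at an unadjusted p of 0.05. With only these 2 groups in the fit the count was 16, and without the filter on low values 3. The 34 genes that differed from Free were chosen with the same Free+BCAA libraries. As no gene passed here, none of the 34 did. Of them 4 had an unadjusted p under 0.05 (1.05% of all genes did). Differences of the 34 ranged from -0.52 to 0.52 log2 units. Cenpf had 4.23 to 6.26 TPM in Free+BCAA and 5.20 to 6.05 TPM in Complete, a difference of -0.04 (95% interval -0.41 to 0.32). Mki67 differed by 0.11 (interval -0.26 to 0.47). The mitosis genes summed to 313 to 375 TPM in Free+BCAA and 279 to 331 TPM in Complete, overlapping ranges. Of the 40, 32 were higher (53.5% of all genes were), none passing, with a median of 0.14.

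The 4 genes at an unadjusted p under 0.05 were Clec3b, Alpl, Sfrp4 and Cntn1. Clec3b had 9.83, 8.10 and 9.53 TPM in Free+BCAA and 13.8, 13.2 and 13.4 TPM in Complete, apart by -0.52 (interval -0.83 to -0.20). Alpl had 25.5, 26.5 and 26.1 TPM in Free+BCAA and 17.0, 18.5 and 18.3 TPM in Complete, apart by 0.52 (interval 0.29 to 0.74). For Clec3b and Alpl the Free+BCAA libraries lay between those of Free and Complete without touching either. Sfrp4 and Cntn1 did not lie between: Sfrp4 had 3.35 to 3.75 TPM in Free+BCAA, 1.82 to 2.09 TPM in Free and 2.13 to 2.87 TPM in Complete. Cntn1 had 1.56 to 2.14 TPM in Free+BCAA, 0.311 to 1.29 TPM in Free and 1.04 to 1.22 TPM in Complete. Interferon response genes were lower in 42 of 45 (46.5% of all genes were), 7 at an unadjusted p of 0.05 (0.359% of all genes) and none passing, with a median of -0.30 and a sum of 2248, 2167 and 2196 TPM in Free+BCAA and 2844, 2345 and 2686 TPM in Complete.

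Keto acids are what BCAA become after transamination, and Bcat enzymes can turn them back. Returning BCAA instead of BCKA gave 85 genes past the threshold (0.65%), of which 36 were higher (0.275%) and 49 lower (0.375%) in Free+BCAA than in Free+BCKA. The count ranged from 48 (without Free+BCAA replicate 3) to 67 when 1 library was left out, was 55 without Free+BCKA replicate 1, and was 226 with only the compared groups in the fit. The amounts returned are not given, so the 2 additions may not match in dose. Glycolysis and hypoxia genes were the clearest group. All 26 were lower in Free+BCAA (51.4% of all genes were), 22 at an unadjusted p of 0.05 (2.36% of all genes). Of the 26, 16 passed (0.375% of all genes), and the median was -0.60.

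Pdk1, the kinase that keeps pyruvate out of mitochondria, had 59.8, 62.9 and 58.6 TPM in Free+BCAA and 106, 103 and 105 TPM in Free+BCKA. The groups were far apart (-0.78, adjusted p = 3.4e-06, limma), and Free lay at 63.6 to 70.5 TPM, near Free+BCAA. Egln3, an oxygen sensor that hypoxia itself induces, had 21.1, 20.2 and 20.5 TPM in Free+BCAA and 45.9, 42.8 and 45.3 TPM in Free+BCKA (-1.08, adjusted p = 7.4e-06), with 21.3 to 25.6 TPM in Free. Vegfa, the angiogenic factor, had 149, 152 and 147 TPM in Free+BCAA and 229, 228 and 229 TPM in Free+BCKA (-0.61, adjusted p = 0.00013). Beyond the list, Fgf23, a phosphate-regulating hormone, had 13.4, 13.1 and 12.8 TPM in Free+BCAA and 31.9, 41.5 and 31.0 TPM in Free+BCKA (-1.33, adjusted p = 9.5e-05). The immune receptor Tnfrsf9, Gpr35 and the retinol carrier Rbp4 were lower by 1.13, 1.04 and 1.04 log2 units.

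Higher in Free+BCAA were the interferon-induced Ifi27l2a (1.58, adjusted p = 0.0022), with 31.5, 28.1 and 26.3 TPM against 9.19, 7.84 and 9.66 TPM in Free+BCKA, and Dpt, the matrix protein dermatopontin (1.14, adjusted p = 1.6e-05), with 23.3, 22.0 and 25.8 TPM against 9.30, 11.9 and 9.66 TPM in Free+BCKA. Adamtsl2, a microfibril-associated protein, and Cyp2f2, a lung cytochrome P450, were each higher by 0.97. Of the 21 fibroblast markers 5 passed upward (0.275% of all genes did), with a median of 0.32.

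Of the 34 genes that differed between Free+BCAA and Free, 7 also differed between Free+BCAA and Free+BCKA, comparisons that share the Free+BCAA libraries. Clec3b, Inmt, Slc37a2, Gsn and Cntn1 were among those higher in Free+BCAA, and Prl2c2 was lower. Clec3b had 3.04, 2.78 and 3.47 TPM in Free+BCKA, at the level of Free, and differed by 1.31 log2 units (adjusted p = 3.3e-05). Prl2c2 stood at 49.1, 45.5 and 53 TPM in Free+BCKA, above every other PBS library, and differed by -0.98 (adjusted p = 0.00047). Mitosis genes summed to 313 to 375 TPM in Free+BCAA, 326 to 403 TPM in Free+BCKA and 537 to 600 TPM in Free. Between Free+BCAA and Free+BCKA 34 of the 40 were lower (51.4% of all genes were), 3 at an unadjusted p of 0.05 (2.36%). None passed, and the median was -0.12. Cenpf differed by -0.38 (interval -0.74 to -0.02).

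The effect of returning BCAA differed with TGF-β1. In the test of the difference between both effects, 5882 of 13084 genes passed (45%), 2344 upward and 3538 downward. After median centring, which shifted the middle of the distribution by 0.10 log2 units, it was 2922 upward and 2813 downward. Free with TGF-β1 was also the most variable group, with a mean SD of 0.41 on the log2 scale, beside 0.21 in Free with PBS and 0.12 in Free+BCAA with PBS. Of the 34 genes 29 differed, 15 of them with effects of opposite sign. For 5 of these, Slc37a2, Pclaf, Cenpf, Dlgap5 and Bub1, the effect with TGF-β1 was close to 0, between -0.02 and 0.12. The test uses the same PBS libraries by which the 34 were chosen, so this count is a description. Genes outside the 34 differed by more, up to 6.26 log2 units in size, and are not named here.

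Mitosis genes were among those with opposite signs. Mki67 differed by 0.63 log2 units between Free+BCAA and Free with TGF-β1 and by -0.99 with PBS, a difference of 1.63 (adjusted p = 1.71e-05, limma). Its levels with TGF-β1 were 7.00, 6.79 and 8.35 TPM in Free+BCAA and 3.20, 6.08 and 4.28 TPM in Free, all below every PBS library. Cenpf was at 1.23 to 2.68 TPM in Free+BCAA and 1.65 to 1.96 TPM in Free with TGF-β1, so that the gap seen with PBS was not there. Hmox1 turned most among the risers. With TGF-β1 it had 115, 104 and 116 TPM in Free+BCAA and 319, 550 and 561 TPM in Free, an effect of -2.04, against 0.75 with PBS (adjusted p of the difference 5.64e-10).

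Some effects were larger with TGF-β1. Gpx3 had 447, 428 and 425 TPM in Free+BCAA and 60.8, 76.4 and 59.2 TPM in Free with TGF-β1, an effect of 2.72, against 0.49 with PBS. Prl2c2 had 12.7, 11.4 and 14.6 TPM in Free+BCAA and 1.23, 1.30 and 1.46 TPM in Free with TGF-β1 (2.57, against 0.88 with PBS). For Slc43a2 the effects were 1.32 with TGF-β1 and 0.86 with PBS, and their difference did not pass (adjusted p = 0.0898). Clec3b, Ces1g, Olfml2a, Cntn1, Sfrp4 and Csf3r were at or under 0.359 TPM in every library of both TGF-β1 groups, which leaves little room for an effect on this scale. Tpx2, Kntc1, Neil3 and Sfrp2 likewise did not pass the test of the difference.

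**Figure D5:**
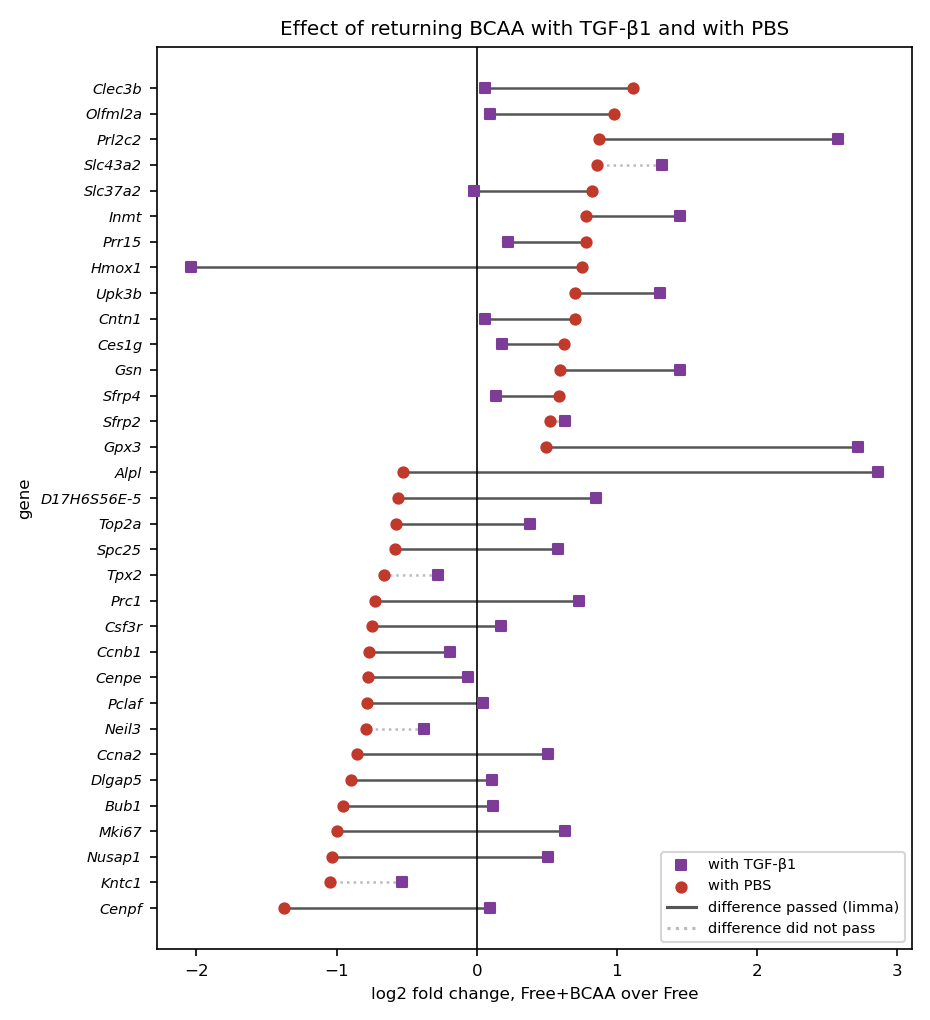
Effect of returning BCAA (log2 fold change, Free+BCAA over Free) on 33 of the 34 genes with TGF-β1 (squares) and with PBS (circles); solid lines join effects whose difference passed an adjusted p of 0.05, dotted lines those that did not. Hmox1 lies at -2.04 with TGF-β1 and 0.75 with PBS, and Alpl at 2.86 and -0.53.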

How the data were processed

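RNA of 24 fibroblast libraries in 8 groups was analysed, all labelled as 1 batch, of which the 12 with PBS carry most results. The deposited values are TPM, which the authors computed for every gene of 1 table. The submitters' processing notes name the mm39 build and, with no versions or roles, the tools HISAT2, Subread with featureCounts, DESeq2, Trim Galore and FastQC; the annotation, strand setting and read counts are not given in the sources used here, so counting error is unknown and overlapping or near-identical genes are uncertain. No value column lacked a sample (0).

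Each value was moved to a log2 scale after adding a pseudocount of 1 TPM, so changes of low genes are understated. Genes with at least 1 TPM in at least 3 libraries entered a linear model of the 8 groups, with variances moderated along a trend on mean level (limma 3.58.1, run in R 4.3.3). The 4 comparisons were Free+BCAA with Free, with Complete and with Free+BCKA, and the difference of the effect between TGF-β1 and PBS. Calls are two-sided at an adjusted p under 0.05 (Benjamini-Hochberg over all genes). The procedure was tested on simulated data.

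The groups compared, 35 pathway lists and 12 marker lists were chosen with earlier results of these data known. Named genes were the 15 largest rises and 15 largest falls with a mean of at least 5 TPM and no overlap of libraries. Also named were the 3 most changed passing members of each list, 25 fixed genes and members of lists described. For the comparison with Free+BCKA the 5 largest each way were named. Against Complete no gene passed, and for the difference between stimuli only genes of the 34 called with PBS are named. Other genes called, with lower means, were named after their values were seen. Of the 34 genes called, 1 is counted but not reported here. The alternatives were a pseudocount of 0.1, no filter, a filter at 5 TPM, median centring, fits of only the compared groups or only the 12 PBS libraries, the replicate number as a block, each library left out, and, added after the data were seen, removal of trends with GC content and transcript length (98.1% of genes had values).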

Additional observations from a re-analysis of the deposited data

Results flagged for a closer look

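The effect of returning BCAA differed between TGF-β1 and PBS for 5882 of 13084 genes by a test of the difference itself in limma (adjusted p under 0.05), and for 29 of the 34 genes called with PBS. The test uses the same PBS libraries by which the 34 were chosen, so the count of 29 and the values that follow are a description. They are the effect with TGF-β1 minus the effect with PBS, on the log2 scale.

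Among genes that fell with PBS, the difference was 3.39 for Alpl, 1.63 for Mki67, 1.54 for Nusap1, 1.47 for Cenpf, 1.45 for Prc1, 1.41 for D17H6S56E-5, 1.37 for Ccna2, 1.16 for Spc25, 1.07 for Bub1 and 1.01 for Dlgap5. It was smaller for Top2a (0.96), Csf3r (0.93), Pclaf (0.83), Cenpe (0.71) and Ccnb1 (0.58). Among genes that rose with PBS, the effect was larger with TGF-β1 for Gpx3 (2.22), Prl2c2 (1.70), Gsn (0.86), Inmt (0.67) and Upk3b (0.61). It was lower with TGF-β1 for Hmox1 (-2.79), Clec3b (-1.06), Olfml2a (-0.89), Slc37a2 (-0.84), Cntn1 (-0.64), Prr15 (-0.55), Sfrp4 (-0.45) and Ces1g (-0.44). Clec3b, Olfml2a, Cntn1, Sfrp4, Ces1g and Csf3r were at or under 0.359 TPM in every library of both TGF-β1 groups. There log2(TPM + 1) leaves little room for an effect, so for these the difference mostly restates the effect with PBS. Prr15 was low in both TGF-β1 groups too, at or under 0.973 TPM. Inmt with TGF-β1 was at 0 to 0.0471 TPM in Free and 1.40 to 2.10 TPM in Free+BCAA, so its larger effect is one between low levels.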

How the results depend on the processing

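The 34 calls became 13 with a pseudocount of 0.1 and 21 with only the compared groups. They became 123 with only the 12 PBS libraries, whose spread leaves out the more variable TGF-β1 libraries. Of the original 34, these fits kept 13, 14 and 31. Leaving out 1 library gave 4 to 19 calls. Higher calls (16) became 5 with the pseudocount, 8 with only the compared groups and 62 with the 12 PBS libraries. They became 27 without the filter, and 2 to 8 with 1 library left out. Lower calls (18) became 8 with the pseudocount, 61 with the 12 PBS libraries and 2 to 11 with 1 library left out. Mitosis genes that fell (10) became 6 with the pseudocount, 16 after median centring, 24 with the 12 PBS libraries and 1 to 7 with 1 library left out. Against Complete, the 0 calls became 3 without the filter and 16 with only the compared groups. Against Free+BCKA, the 85 became 55 with the pseudocount, 226 with only the compared groups, 198 with the 12 PBS libraries and 48 to 67 with 1 library left out. Beyond the construction of each fit, the cause was not tested. A replicate block gave 34 calls, 27 of them among the original 34; between Free+BCAA and Free the deviations of same-numbered libraries correlated at 0.00585, 0.129 and 0.26, not all over 0.1. In the difference between stimuli, all 3 were over 0.1 for Free with TGF-β1 and Free+BCAA with PBS (0.269, 0.118 and 0.21) but not for the other pairs of groups. The fit of only the 12 PBS libraries was not run for the difference between stimuli, which needs the TGF-β1 libraries. Depth is unknown, so low genes such as Csf3r carry an unknown counting error.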
